A study of Mus musculus with 2 samples.

Results

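PPARγ peaks that lie in introns and carry neither the receptor's own DR1 element nor an AP-1 site were examined in the peak list of one mouse TH2 cell ChIP experiment. They numbered 635 of 2537 peaks, 25.03% of the list. A peak was taken when its centre lay in an intron (outside exons and outside promoters, which spanned 1000 bp before to 100 bp after any transcription start site, TSS), within 100 kb of a protein-coding TSS and in sequence not marked as a repeat, and when the 200 bp around the centre held neither element. DR1 was counted as present when a direct repeat of AGGTCA with a spacer of 1 base matched at 10 or more of its 12 fixed bases, and AP-1 when TGACTCA or TGAGTCA was present, both strands being searched. The steps left 1330 peaks in introns, 1172 within 100 kb of a TSS, 978 outside repeats, 798 without DR1 and 635 without AP-1. Of the 978 peaks that met the conditions on place, 180 (18.4%) held DR1, 163 (16.7%) held AP-1 and no DR1, and 64.9% held neither. Of 553158 genome windows of 200 bp under the same conditions, 2.95% held DR1, 3.54% held AP-1 and no DR1, and 93.5% held neither.

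Primary T cells of the C57BL/6J strain, naive CD4+ at the start, were polarised to TH2 in culture and transduced on days 1 and 2 with a retrovirus carrying TY1-tagged Pparg, and chromatin was taken on day 4. The ChIP library used an antibody against the TY1 tag, so the peaks describe the introduced receptor, and its counterpart was 1 input library of the same transduced cells, whose use was as background in peak calling. Peaks give no expression against which the TH2 label could be checked. There was 1 library of each kind and no replicate. The p-values below therefore take peaks as units and say nothing about the spread between cultures. The file gives each peak a position and the same score of 1, so every peak counts once and no peak strength can be compared. The ChIP library held 10229438 tags, of which 54617 (0.534%) fell in peaks, 21.5 tags per peak on average.

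PPARγ is a nuclear receptor activated by fatty acid ligands, and it binds DNA as a heterodimer with RXR. The pair reads DR1, with PPARγ on the upstream half-site, where it also contacts the bases before the repeat, and RXR on the downstream one. Many receptors of the same family recognise the AGGTCA half-site in other arrangements, and NR4A and ROR factors bind a single half-site with its own extension. AP-1 dimers of JUN, FOS and BATF factors act with other factors at T cell enhancers, and many enhancers lie in introns. ETS and RUNX factors bind a large share of T cell enhancers.

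The sequences below are examples of the other sites and near-misses found in these peaks. The first 5 carry the motifs that stood highest above the genome among those present in at least 10 of the peaks, each in the intron of a listed gene. The last 2 carry near-misses of DR1 and AP-1, and that pair was chosen after its values were seen. All are printed on the plus strand of GRCm38 (mm10) from the RefSeq assembly, 173 bases each, with the motif, which may read on either strand, in capitals. The Il6st peak (chr13:112465306-112465478, intron 1) holds the NR4A-type extended half-site AAAGGTCA. The Chd4 peak (chr6:125098576-125098748, intron 2) holds a ROR site. The Chd7 peak (chr4:8783272-8783444, intron 2) holds an ETS site. The Fosl2 peak (chr5:32139814-32139986, intron 1) holds a CTCF core. The Il7r peak (chr15:9523142-9523314, intron 2) holds a DR3, the same half-sites with a spacer of 3. The Osbpl3 peak (chr6:50399572-50399744, intron 2) holds a DR1 with 3 mismatches, all in its upstream half-site, on the minus strand. The Cpt1a peak (chr19:3325570-3325742, intron 1) holds an AP-1 site with the penultimate base changed.
Il6st peak: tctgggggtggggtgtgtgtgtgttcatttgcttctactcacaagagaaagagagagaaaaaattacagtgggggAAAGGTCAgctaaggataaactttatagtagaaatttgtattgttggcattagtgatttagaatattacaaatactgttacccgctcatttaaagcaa
Chd4 peak: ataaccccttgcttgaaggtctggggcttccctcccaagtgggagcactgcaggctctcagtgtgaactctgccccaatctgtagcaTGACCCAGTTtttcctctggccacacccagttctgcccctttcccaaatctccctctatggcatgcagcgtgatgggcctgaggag
Chd7 peak: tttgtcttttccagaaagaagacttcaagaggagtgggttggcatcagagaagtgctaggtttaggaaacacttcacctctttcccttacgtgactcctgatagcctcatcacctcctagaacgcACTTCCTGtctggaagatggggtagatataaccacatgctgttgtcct
Fosl2 peak: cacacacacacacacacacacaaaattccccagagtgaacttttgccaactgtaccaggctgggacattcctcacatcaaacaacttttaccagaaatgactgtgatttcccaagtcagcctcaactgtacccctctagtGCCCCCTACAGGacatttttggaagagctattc
Il7r peak: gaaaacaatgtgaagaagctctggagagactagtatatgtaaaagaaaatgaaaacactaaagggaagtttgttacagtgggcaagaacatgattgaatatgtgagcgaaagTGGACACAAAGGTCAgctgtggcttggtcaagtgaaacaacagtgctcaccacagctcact
Osbpl3 peak: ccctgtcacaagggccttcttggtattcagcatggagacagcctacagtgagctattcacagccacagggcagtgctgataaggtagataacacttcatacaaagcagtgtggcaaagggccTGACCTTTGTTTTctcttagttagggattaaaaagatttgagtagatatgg
Cpt1a peak: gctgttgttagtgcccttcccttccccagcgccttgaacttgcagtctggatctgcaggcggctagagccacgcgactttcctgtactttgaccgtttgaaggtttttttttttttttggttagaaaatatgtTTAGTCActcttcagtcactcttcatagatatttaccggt

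Many of the 635 peaks fell just short of the DR1 limit. The best DR1 match had 3 mismatches in 246 peaks (38.7%), 4 in 280 (44.1%), 5 in 105 (16.5%) and 6 in 4. Genome windows served as the background: 200 bp windows centred on every 1000th base that met the same conditions on place, repeats and elements, 517257 in all, weighted to the GC content of the peaks. Among those windows a best match with 3 mismatches was present in 16.5%, with 4 in 52.7% and with 5 in 30.2%. Just inside the limit, 122 intronic peaks had a best match with 2 mismatches and so were counted as DR1 peaks. Because the mismatch count is what the selection used, these shares are a description with no test. The 340 intergenic peaks without DR1 or AP-1 showed a 3-mismatch match in 37.1%. DR1 matches with 3 mismatches were 2.72-fold denser within 50 bp of the peak centres (2.78 per kb, 178 matches) than at 300 to 500 bp (1.02 per kb, 251 matches). The same share differed along the file, 50.3% in the first 159 of the 635 peaks in file order, 40.3% and 35.2% in the next sets of 159 and 29.1% in the last 158, and the header does not say what the row order stands for.

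**Figure D1:**
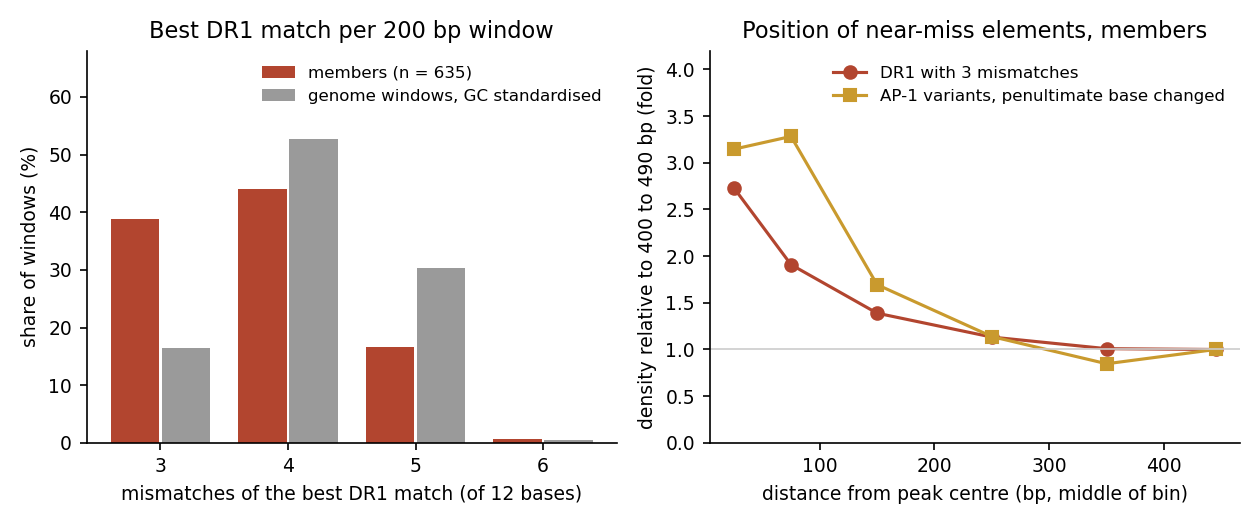
Left, share of windows (%) by number of mismatches in the best DR1 match, for the 635 intronic peaks without DR1 or AP-1 (red) and for genome windows that met the same rule, standardised to the same GC content (grey). Right, density of DR1 matches with 3 mismatches and of the AP-1 variants TGAGTAA and TGACTAA by distance from the centre of the 635 peaks, relative to the bin at 400 to 490 bp. The peaks exceed the windows at 3 mismatches (38.7% against 16.5%), and both near-misses are densest within 100 bp of the centre.

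The selection did not read the bases around those 3-mismatch matches. They were close to those at full DR1 elements at some places, and less so at another. The base before the repeat was thymine at 49.4% of the matches in the 635 peaks (120 of 243 with 4 readable bases before the match, exact 95% interval 42.9 to 55.8), at 49.7% in the intronic peaks with DR1 (89 of 179), and at 19.7% in genome windows with a 3-mismatch match. Adenine stood 4 bases before the repeat in 49.0% (interval 42.5 to 55.4), against 48.0% in DR1 peaks and 28.6% in genome windows. The spacer base was adenine in 53.5% (interval 47.0 to 59.9), against 53.6% in DR1 peaks and 25.1% in genome windows. Cytosine 3 bases before the repeat was rare in both sets of peaks, at 9.47% in the 635 peaks and 3.91% in DR1 peaks, against 22.6% in genome windows. At 2 bases before the repeat, adenine and thymine did not follow DR1 peaks. Adenine stood there in 25.5% (interval 20.2 to 31.5), against 10.6% in DR1 peaks (6.51 to 16.1) and 28.6% in genome windows. Thymine at that place was at 14.4% in the 635 peaks, against 24.0% in DR1 peaks and 25.8% in genome windows. Cytosine there was at 28.8%, against 26.3% in DR1 peaks and 20.5% in genome windows. Guanine was at 31.3%, against 39.1% and 25.1%. These comparisons were made after the near-misses had been seen, and they are given with counting intervals and no test.

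**Figure D2:**
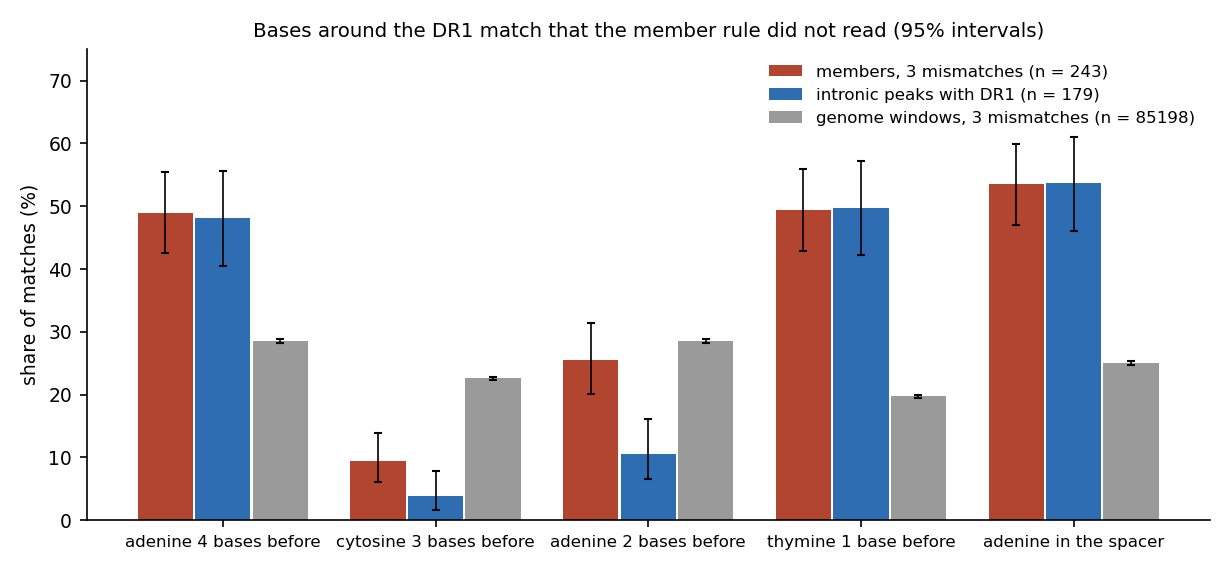
Share of DR1 matches (%) with the named base before the repeat or in its spacer, for the 3-mismatch matches of the intronic peaks without DR1 or AP-1 (red, 243 matches), the DR1 matches of intronic peaks with DR1 (blue, 179) and the 3-mismatch matches of genome windows (grey, 85198). Bars are 95% exact binomial intervals. Thymine before the repeat reaches 49.4% and 49.7% in the 2 classes of peaks and 19.7% in genome windows, while adenine 2 bases before it stands at 25.5% in the peaks without the elements, 10.6% in DR1 peaks and 28.6% in genome windows.

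The mismatches fell on some positions more often than in genome windows and on others less often, a description with no test. Counting positions from 1 at the 5′ end of the repeat, the T at position 4 was changed in 49.2% of the 246 matches, against 31.4% in genome windows. The C at position 12 was changed in 38.6% against 27.9%, and the first base in 33.3% against 19.1%. The A at position 6, which precedes the spacer, was changed in 9.76% against 19.3%, and the G at position 9 in 13.4% against 22.8%. Among the other positions, the T at 11 was changed in 22.4% against 32.4% and the G at 2 in 17.1% against 25.1%. The C at position 5 was changed in 32.9% against 24.8%. The downstream half-site was intact in 35 matches (14.2%, interval 10.1 to 19.2), against 8.67% in genome windows, and the upstream half-site was intact in 23 (9.35%, interval 6.02 to 13.7), against 8.93%.

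AP-1 near-misses were also common, and some forms stood farther above the genome than others. An AP-1 site with 1 mismatch was present in 363 peaks (57.2%), against 45.0% of genome windows. The variants TGAGTAA and TGACTAA, which change the penultimate base, were present in 106 peaks (16.7%), against 5.52% of windows and 57 (16.8%) of the 340 intergenic peaks without the elements. TGAGTAA alone was present in 62 peaks (9.76%), 3.41 times its share of windows, and TGACTAA in 52 (8.19%), 2.99 times. These 2 variants were 3.55-fold denser within 50 bp of the centre than at 300 to 500 bp. TGAATCA, present in 45 peaks, stood at 2.35 times the window share, TGACACA, in 50, at 1.83 times and TGACGCA, in 7, at 3.39 times, each with an interval above that share. TAAGTCA, at 1.74 times, TCAGTCA, at 1.53, and AGAGTCA, at 1.44, also had intervals above the window share. Some other single changes stood near that share, such as TGAGACA at 1.02 times and TGAGCCA at 1.00 times. A 3-mismatch DR1, a TGAGTAA or TGACTAA variant or both occurred in 310 peaks (48.8%), against 21.1% of windows, and 325 peaks (51.2%) held neither.

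The search of all 8-mers, read without reference to known motifs, was led by parts of the same elements. AAAGGTCA led with 45 peaks (7.09%), 7.55 times its share of 0.939% in windows. GACCTTTA and CAAAGGTC followed at 6.25 and 6.24 times, and AAAGGTTA and ACAAAGGT stood at 5.33 and 5.31 times, all of them within 1 mismatch of a stretch of DR1. ATTACTCA (6.01 times), ATGAGTAA (5.81 times) and ATGACTAA (5.68 times) each hold an AP-1 site with 1 mismatch. There were 2607 8-mers in at least 10 of the peaks. AAAGGTCA is the NR4A site and also matches the end of a DR1, with the base before the spacer, the spacer itself and the downstream half-site. It was 9.01-fold denser at the centres than at 300 to 500 bp, and the Il6st sequence above holds one near its middle. Of the 45 peaks with AAAGGTCA, 31 also held a 3-mismatch DR1 and 14 did not. Those 14 were 2.20% of the peaks, against 0.474% of windows.

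Other half-site arrangements and T cell factor sites followed. The plain half-site AGGTCA was present in 124 peaks (19.5%, interval 16.5 to 22.8), 1.81 times the window share of 10.8%, while the scrambled control GATGCA was present in 48 (7.56%), 0.867 times. The ROR site, which includes the extended PPAR half-site, was present in 16 peaks (2.52%), 3.34 times the window share (interval 1.92 to 5.39). DR3, known for the vitamin D receptor, was present in 27 peaks (4.25%), 2.16 times (1.43 to 3.11), and DR2 in 26, at 1.96 times. The ETS site was present in 26 peaks (4.09%), 2.48 times (1.63 to 3.60), and the RUNX site AACCACA in 51 (8.03%), 1.79 times (1.35 to 2.32). The core of CTCF, which organises chromatin loops, was present in 19 peaks (2.99%), 2.26 times (1.37 to 3.49). The NFKB site stood at 1.75 times (1.02 to 2.78), and the site CTTTGAT of TCF7 and LEF1 at 1.55 (1.10 to 2.11). The STAT5-type site stood at 1.33 (1.02 to 1.69). The GATA site AGATAA, the motif of the TH2 regulator GATA3, stood at 1.28 (1.07 to 1.52), in 111 peaks (17.5% against 13.6%). The intervals of the STAT6-type site (1.17, 0.864 to 1.55) and the NFAT site TGGAAAA (1.07, 0.784 to 1.43) included 1. Of 33 motifs present in at least 10 peaks, 12 had an interval above 1 and 0 had one below. These intervals are not adjusted for the number of motifs. Among the 12, AAAGGTCA, the ROR site, DR3, DR2 and the half-site overlap the elements that the selection used. The lowest were the MAF half-site TGCTGAC (0.640 times), the YY1 site AAGATGG (0.782) and the NFY site (0.787). Density within 50 bp of the peak centres was also set against that at 300 to 500 bp. The interval of that ratio included 1 for ETS (1.43, 0.674 to 2.85) and the CTCF core (1.25, 0.520 to 2.73). It also did for DR2 (1.86) and the TCF7 and LEF1 site (1.60). It lay above 1 for DR3 (4.03), the ROR site (3.56), NFKB (2.03) and the half-site (1.76). The same held for the RUNX (1.67), STAT5-type (1.53) and GATA (1.44) sites. DNA that is open in these cells was not among the data used here, so the windows include closed chromatin.

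**Figure D3:**
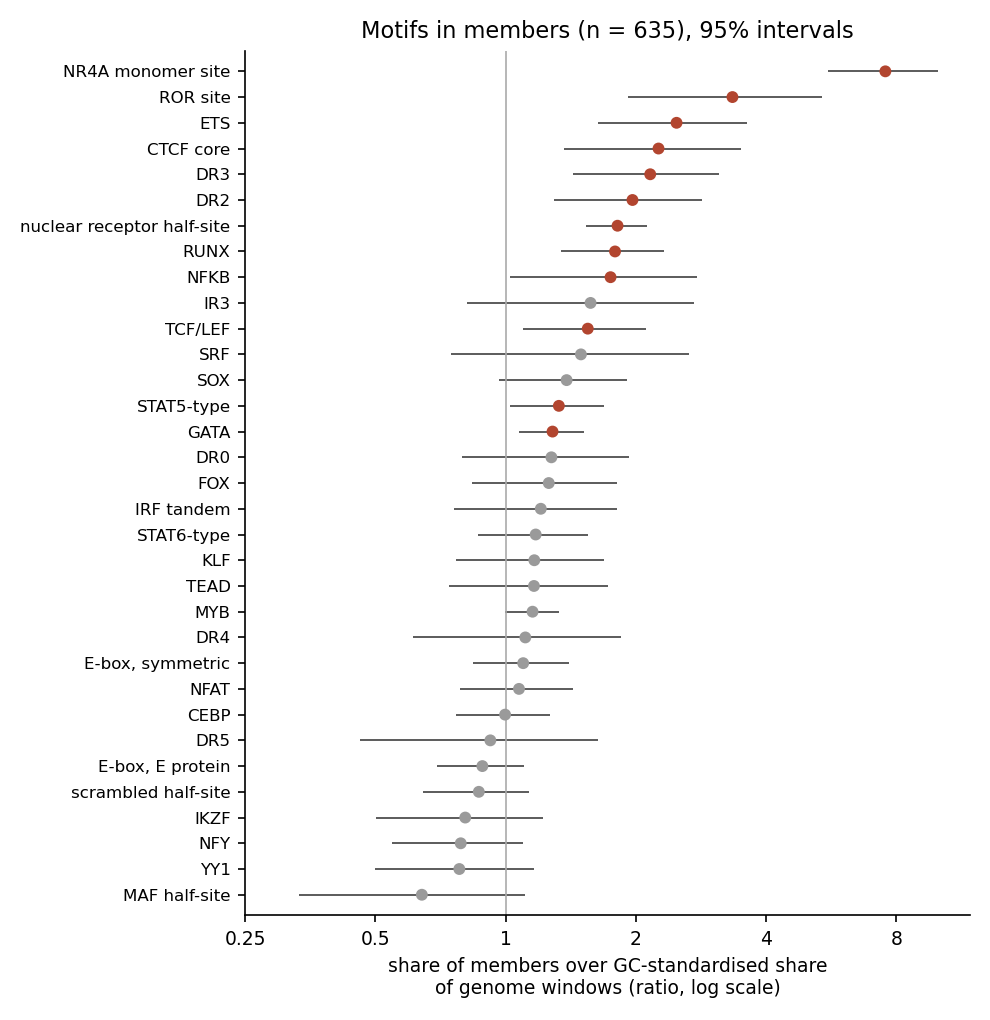
Share of the 635 intronic peaks without DR1 or AP-1 that hold a motif, divided by the GC-standardised share of genome windows (log axis), for the 33 motifs present in at least 10 peaks. Points are ratios, lines 95% exact intervals of the peak share, and red marks the 12 motifs with an interval above 1. The NR4A monomer site AAAGGTCA lies farthest to the right at 7.55.

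The 325 peaks with neither a 3-mismatch DR1 nor a TGAGTAA or TGACTAA variant still exceeded the windows for ETS, RUNX and STAT5-type sites and for the half-site. The ETS site was present in 13 of them (4.00%, interval 2.15 to 6.74), against 1.55% of windows of the same kind, and the RUNX site in 25 (7.69%, interval 5.04 to 11.1), against 4.54%. The STAT5-type site was present in 36 (11.1%, interval 7.88 to 15.0), against 7.27%. The half-site was present in 42 (12.9%, interval 9.47 to 17.1), against 7.69%. The GATA site, at 15.4% against 14.4%, had an interval that included the window share. Across the 635 peaks, 208 (32.8%) held neither a half-site, repeat nor any of the T cell factor motifs searched, against 46.3% of windows.

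In 200 bp windows no motif passed the test between the intronic peaks and other classes of peaks in the same library. Fisher's exact test, two-sided, with Benjamini-Hochberg adjustment, called 0 of 48 motifs (0%) against the 340 intergenic peaks without DR1 or AP-1, and 4 had an unadjusted p below 0.05. The MAF half-site had the smallest p, present in 1.89% of the 635 peaks and 5.59% of the intergenic ones (log2 odds ratio −1.62, SE 0.54, with an adjusted p of 0.158 in this exact test). AAAGGTCA was present in 7.09% of the intronic and 4.41% of the intergenic peaks, with a log2 odds ratio of 0.72 and a 95% interval of −0.14 to 1.59. Against the 180 intronic peaks with DR1, 0 of 35 motifs that do not overlap the 2 elements were called (0%), and 3 had an unadjusted p below 0.05. Against the 163 intronic peaks with AP-1 and no DR1, 0 of 35 were called (0%), and 0 had an unadjusted p below 0.05. Windows of 100 bp changed the classes to 772 peaks without the elements and 113 DR1 peaks. There the KLF site GGGTGTG was called, present in 1.42% and 7.08% of them (adjusted p = 0.0436, Fisher's exact test). In the 200 bp classes its shares were 4.09% and 8.33% (adjusted p of 0.567 by the same exact test).

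Place within genes was described next. The median distance from a peak centre to the nearest protein-coding TSS was 17394 bp, against 23093 bp for the genome windows, and it ranged between 190 and 99070 bp. In all, 233 peaks (36.7%) lay within 10 kb of a TSS, 27 of them (4.25%) within 1 kb. Of the genome windows, 2.23% lay within 1 kb and 25.1% at 1 to 10 kb. The first intron held 249 of the 612 peaks in an intron of an annotated basic transcript (40.7%), the second 99 (16.2%) and introns beyond the fifth 140 (22.9%). Shares of genome windows by intron number were not computed. Whole peaks were free of exon sequence in 619 cases (97.5%). The host gene was protein-coding in 599 cases (94.3%). Where genes overlap, the host was the longest protein-coding gene over the centre. The peak lay outside the gene of its nearest TSS in 142 cases (22.4%). Chromosomes 19 and 11 had the highest densities, 2.39 and 2.08 peaks per Mb of windows that met the rule, against 1.23 over all chromosomes. Chromosome X held 2 peaks, 0.0992 per Mb.

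Set against the 3 other classes, 3 of 14 tests of place and base content passed the threshold (21.4%). One of the 3, closeness to a TSS against the intergenic peaks, rests on place and distance, which the selection used. It is therefore given as a description: 36.7% of the 635 peaks and 27.9% of the intergenic peaks without the elements lay within 10 kb of a TSS. Another peak of any class lay within 10 kb of 111 of the 635 peaks (17.5%), against 17 of 180 DR1 peaks (9.44%). The log2 odds ratio was 1.02 (SE 0.40, adjusted p of 0.0356 by Fisher's exact test), a call lost under 10 of 14 alternatives. GC content above 50% was less frequent in the 635 peaks than in DR1 peaks, at 11.7% against 22.2% (log2 odds ratio −1.12, SE 0.31, adjusted p of 0.00825 by the same exact test), and this call was lost under 3 of 14, the first 1268 and the last 1269 rows of the file among them. DR1 itself holds G and C bases, and its part in that difference was not tested. The share in first introns, 40.7%, was 45.6% in DR1 peaks and 33.8% in AP-1 peaks, and neither difference passed (adjusted p = 0.339 and 0.210, Fisher's exact test).

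**Figure D4:**
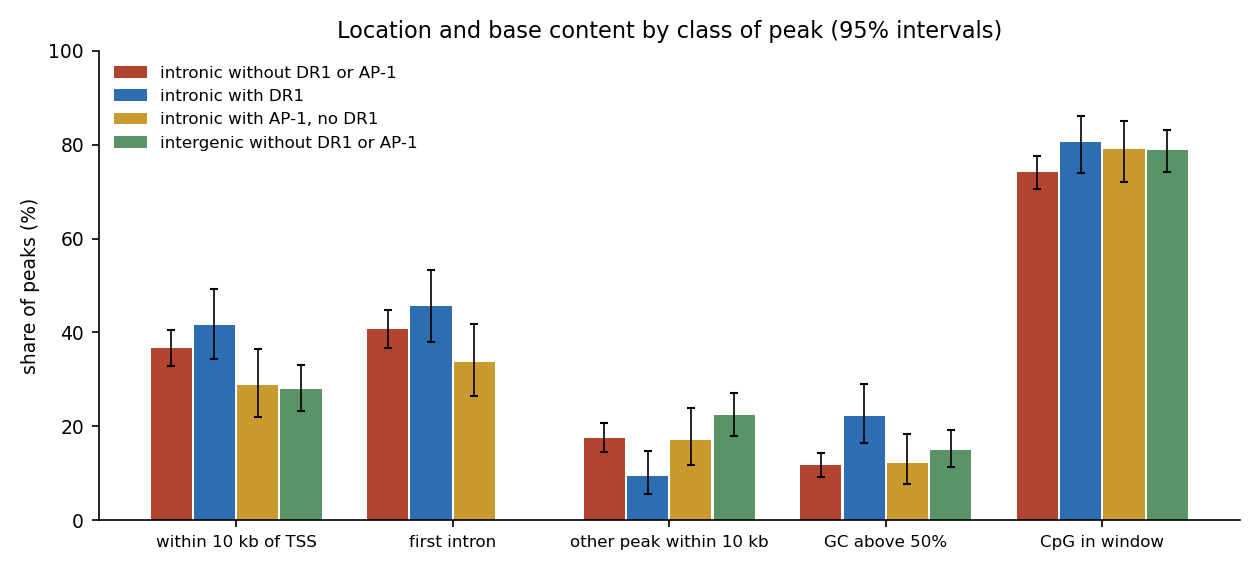
Share of peaks (%) with each feature of place or base content, for the intronic peaks without DR1 or AP-1 (red, n = 635), intronic peaks with DR1 (blue, n = 180), intronic peaks with AP-1 and no DR1 (yellow, n = 163) and intergenic peaks without either (green, n = 340). Bars are 95% exact binomial intervals, and first introns do not apply to intergenic peaks. The red bar for GC above 50% stands at 11.7%, beside 22.2% for DR1 peaks.

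By nearest TSS, the 635 peaks fell to 562 genes, 2.56% of the 21911 protein-coding ones. Of these genes 500 had 1 such peak, 52 had 2 and 10 had 3 or more. For 425 of the 562 genes they were the gene's only peaks, and the other 137 also had a peak of another class, with DR1 in 59 genes and at a promoter in 14. Lcp1, which encodes the actin-bundling protein L-plastin of blood cells, had the most, with 4 peaks at 527, 1969, 12203 and 14127 bp from its TSS, all in its own introns and with no other peak. Those with 3 were Arap2, Cytip, Fam133b, Fbxw7, Inpp4b, Ncoa7, Nlk, Rapgef1 and Rbpj, and the first by symbol of those with 2 were 4931440F15Rik and 4932438H23Rik. Cytip encodes a lymphocyte protein that regulates adhesion, Fbxw7 a ubiquitin ligase subunit, Nlk a kinase of the WNT pathway and Rbpj the DNA-binding factor of NOTCH signalling. Inpp4b encodes a phosphoinositide phosphatase and Rapgef1 an exchange factor for RAP GTPases. The 3 Fbxw7 peaks, at 4901, 12578 and 20267 bp, lay within the gene, where the longer annotated gene Gm37240 overlaps it.

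The peaks nearest to a start site lay in the first or second intron. They were at Qdpr (190 bp, a reductase of tetrahydrobiopterin recycling), Dhx35 (208 bp, a helicase), Acadvl (325 bp), Bcl2l13 (433 bp, a mitochondrial BCL2 relative), Usp50 (434 bp), Hsdl2 (443 bp), Pdgfra (453 bp, a growth factor receptor) and Dennd6b (508 bp). The Qdpr, Dhx35 and Dennd6b peaks held a half-site, and the Dennd6b peak held AAAGGTCA. The Bcl2l13 and Hsdl2 peaks held none of the 48 motifs.

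Genes were then read in 20 lists, with 913 of 916 symbols matched and 30 symbols in more than 1 list. The lists were chosen with earlier results of these data known, so their shares are a description with no test. Of the 763 symbols in lists of T cell, signalling and metabolic genes, 80 had one of the 635 peaks. Genes of T cell receptor signalling and costimulation had the highest share, 10 of 47 (21.3%, exact 95% interval 10.7 to 35.7), against 2.56% of all protein-coding genes. Per Mb of eligible sequence near these genes there were 5.19 peaks, against 1.23 over the genome. Within 10 kb, 2 of the 47 genes (4.26%) had the peak, against 222 of the 21911 protein-coding genes. That background also applies to the 10 kb counts of the lists below. The adaptor gene Sla had 2 peaks, at 869 and 4967 bp, and the nearer lay in intron 41 of Tg, the thyroglobulin gene that overlaps it. Themis, which encodes a regulator of thymocyte selection and signalling, had a peak in its first intron at 2970 bp. The adaptor gene Grap2 had a peak at 15652 bp in intron 4, with a CTCF core, and the costimulatory receptor gene Cd28 one at 18884 bp in intron 2. The peak assigned to the inhibitory coreceptor gene Cd5, at 20044 bp, held a half-site and lay in an intron of another annotated gene.

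Cytokine receptor, JAK and STAT genes had a peak in 6 of 47 (12.8%, interval 4.83 to 25.7), at 5.45 per Mb. Il6st, the gene of the shared gp130 chain, had the peak printed above at 1280 bp. Jak2, which encodes a receptor-associated kinase, had one at 4230 bp in its second intron. Il7r, the IL-7 receptor gene, had 2, the nearer at 6600 bp with a DR3 that ends in AAAGGTCA. Il4ra, which encodes the IL-4 receptor chain that starts the TH2 programme, had one at 13776 bp in intron 3 without a half-site. Helper effector genes had 2 of 34 (5.88%), Cxcr6 and Prf1, both peaks lying in neighbouring host genes.

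Lymphoid transcription factor genes had a peak in 8 of 52 (15.4%, interval 6.88 to 28.1), and 1 of 52 (1.92%) had it within 10 kb. Bach2, a repressor that restrains effector differentiation, had 2, the nearer at 7243 bp in intron 3 with ROR and RUNX sites. Ikzf1, the Ikaros gene, had one at 18307 bp, Ets1 had 2, the nearer at 25088 bp with none of the 48 motifs, Irf8 one at 27513 bp in another annotated gene and Zeb2 one at 42561 bp with a RUNX site. AP-1 and bZIP genes had 3 of 42 (7.14%), Fosl2, Bach2 and Jun. Fosl2 had 2 peaks in its first intron, at 2032 bp with AAAGGTCA and a RUNX site and at 4099 bp with the CTCF core printed above. Nuclear receptor and coregulator genes had 3 of 47 (6.38%). They were Esrra, the oestrogen-related receptor gene of mitochondrial metabolism, at 674 bp, the coactivator gene Ncoa7 with 3 peaks from 1317 bp on, and Rora at 45593 bp.

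The lists of migration, phosphatase, phosphoinositide and chromatin genes had shares between 11.8% and 14.8%. Chemokine receptor, integrin and homing genes had 7 of 48 (14.6%), at 5.33 peaks per Mb, led by Icam2 (4725 bp), the integrin gene Itgb3 (6355 bp, with RUNX and GATA sites), Cxcr6 (8059 bp, in a Fyco1 intron), Pecam1 (12294 bp) and Elmo1 (20444 bp). Phosphatase, RGS and Sprouty genes had 6 of 44 (13.6%), or 2 of 44 (4.55%) within 10 kb, led by Ptpn4 (1289 bp), Dusp5 (7120 bp) and Dusp22 (32785 bp). Phosphoinositide, diacylglycerol and mTOR genes had 6 of 51 (11.8%), and 4 of the 6 had the peak within 10 kb. These were Inpp4b (1709 bp), Rheb, the activator of mTOR (1897 bp), Plcl2 (2265 bp) and the calcium channel gene Itpr2 (6935 bp). The kinase gene Prkcq followed at 31648 bp with AAAGGTCA. Chromatin modifier genes had 8 of 54 (14.8%), or 2 of 54 (3.70%) within 10 kb, led by the remodeller gene Chd4 (2500 bp), Kdm2b (5270 bp), Tet2 (11386 bp, in another annotated gene), Kdm7a (24683 bp) and Chd7 (31920 bp).

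Most genes of fatty acid oxidation and lipid storage that had a peak had it within 10 kb. Mitochondrial fatty acid oxidation genes had 4 of 45 (8.89%, interval 2.48 to 21.2), all 4 within 10 kb, at 6.65 peaks per Mb. Both the density and the share within 10 kb were the highest of the 20 lists, and the differences between lists were not tested. Acadvl, which encodes the dehydrogenase of very long chain acyl-CoAs, had a peak at 325 bp with DR3 and a CTCF core. Slc25a20, the carnitine and acylcarnitine carrier gene, had one at 1478 bp, Hadha, a subunit gene of the trifunctional protein, one at 3056 bp, and Cpt1a, which encodes the gatekeeper of fatty acid entry into mitochondria, 2 at 2371 and 11078 bp. Lipid storage genes had 4 of 52 (7.69%), the lipase inhibitor gene Angptl4 at 2378 bp with a RUNX site, the lipase gene Lipe at 2715 bp, Mlxipl at 8583 bp and Elovl5 at 41412 bp. Cholesterol genes had 4 of 40 (interval 2.79 to 23.7%), among them the lipoprotein receptor gene Lrp8 (1684 bp), Osbpl3 (16821 bp) and the cholesterol exporter gene Abca1 (45510 bp, with a ROR site). Hypoxia and glycolysis genes had 3 of 46 (6.52%), the glucose transporter gene Slc2a1 at 17084 bp, Hif1a at 50351 bp, in another annotated gene, with ETS and RUNX sites and Myc at 76197 bp in an intron of Pvt1. TGF-β genes had 3 of 39 (7.69%), Smad4, Tgfb3 and Tgfbr2, and NF-kB genes 3 of 50 (6.00%), Ikbke, Otulin and Zfp36l1. Within 10 kb both of these lists had 0, and by host gene the NF-kB list had 0 of 50.

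The shares in lists of other cell types had intervals that included the 2.56% of all protein-coding genes. The same held for helper effector, AP-1 and bZIP, nuclear receptor, NF-kB, TGF-β, fatty acid oxidation, lipid storage and hypoxia genes. Neuron and synapse genes had 1 of 52 (1.92%, Dlg2), at 0.127 peaks per Mb (interval 0.00321 to 0.706). Muscle genes had 2 of 50 (4.00%, Neb and Ckmt2) and liver genes 1 of 48 (2.08%, Apoa1). The lists differ in gene length and in how many of their genes are active in T cells, and the part of either in these counts was not tested.

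**Figure D5:**
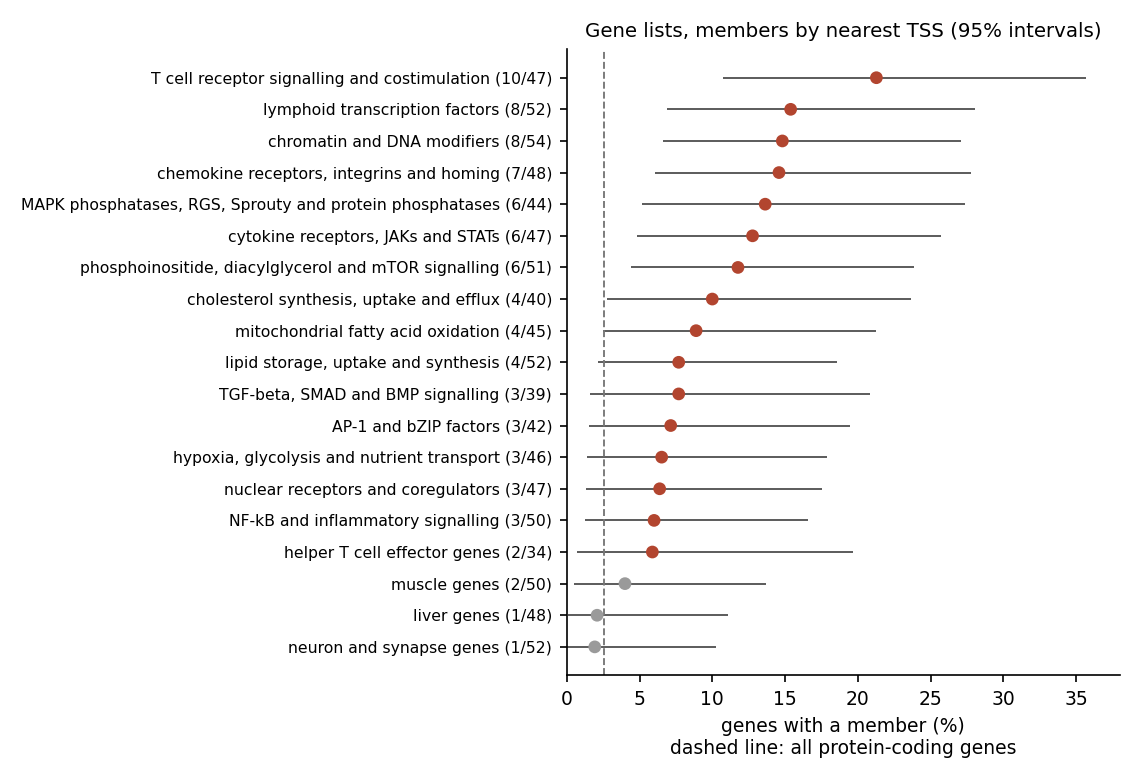
Share of genes (%) in each list shown with at least one of the 635 intronic peaks without DR1 or AP-1, assigned by nearest TSS within 100 kb, with 95% exact binomial intervals. Grey points are lists of other cell types, and the dashed line is the share over all protein-coding genes (2.56%). T cell receptor signalling genes lie highest at 21.3%, and neuron and synapse genes lowest at 1.92%.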

How the data were processed

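One ChIP library and 1 input library of mouse TH2 cells form the series. The authors aligned reads to mm10 with Bowtie2, kept unique tags and called peaks with HOMER, per the submitters' processing notes and the series text. Their versions are not given in the sources used here. The caller took fragments and peaks to be 172 bp, set a false discovery rate of 0.001 (8 tags) and asked for 4 times the input, per the file headers. The score in the deposited file is 1 in every row. Unique alignment leaves out sequence repeated elsewhere. Read length is given differently in the sources and was not used.

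The members and gene lists were chosen with earlier results of these data known. Classes and distances came from the GENCODE vM21 basic annotation and sequence from the RefSeq GRCm38.p6 assembly. Both strands of the 200 bp around peak centres were searched, repeats with up to 2 mismatches in 12 bases and the CTCF core with 1 mismatch. Window shares were standardised to the peaks' GC content in 2% bins. Classes were compared by Fisher's exact test with Benjamini-Hochberg adjustment within each comparison at 0.05. Odds ratios carry Wald intervals, shares exact Clopper-Pearson intervals at 95%, and both cover counting error only. The tests and the motif search were tried on simulated data.

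Named are the 8 peaks nearest a TSS, genes with the most peaks (up to 12, ties by symbol), up to 5 genes per list with the nearest peaks, the 8 leading 8-mers and the 5 highest and 3 lowest motifs. Some genes and a gene list are not reported here. Other motifs and all near-miss values were named after their values were seen. Alternatives changed the promoter width, annotation, TSS limit, repeat rule, mismatches, window, chromosomes, rows of the file, window standardisation and gene assignment. The scripts ran on scipy 1.17.1, numpy 2.4.6, matplotlib 3.10.9 and pandas 2.3.3 under Python 3.11.15.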

Additional observations from a re-analysis of the deposited data

How the results depend on the processing

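The count of 635 peaks was within 1.5 times under 10 of 14 alternatives. It was 389 with DR1 allowed 3 mismatches, 272 with AP-1 allowed 1, and 304 and 331 in the first 1268 and last 1269 rows of the file. The share in a first intron ranged from 38.9% to 44.3% and the share with another peak within 10 kb from 15.1% to 20.1%. The share within 10 kb of a TSS was 33.4% to 43.5%, the highest with a TSS limit of 50 kb, by whose construction it rises. The number of location calls, 3 as reported, was 1 under each of a 50 kb limit, DR1 with 3 mismatches, AP-1 with 1 mismatch, the first 1268 rows and all transcripts of the annotation (an alternative added after the data were seen), and 0 in the last 1269 rows (Fisher's exact test, where 4 of 14 had an unadjusted p below 0.05). The cause was not tested. Adjusted p over the alternatives ranged from 0.0103 to 0.536 for another peak nearby and 0.000261 to 0.234 for GC content, and both kept their direction under all 14. The motif comparisons stayed at 0 calls, with the exception of 1 call against DR1 peaks in 100 bp windows. All 33 motif ratios stayed within their intervals without GC standardisation. By host gene, 519 genes had a peak, and the share of 3 of the 20 lists fell outside its interval. Within 10 kb, 222 genes and 29 of the listed T cell, signalling and metabolic genes had a peak, and the share of 12 of the 20 lists fell outside its interval. No paired analysis was possible because there was 1 library of each kind, and leaving out a replicate was not possible. The caller's threshold of 8 tags, at this depth, limits which sites are listed.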

Other observations

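Of the 635 intronic peaks, 39 held a DR1 and 59 an AP-1 site in windows of 400 bp, and 105 had a DR1 centred within 500 bp of the peak centre. No share of genome windows was computed for these counts. DR1 density was 0.339 per kb at 100 to 200 bp from the centre, 0.165 at 200 to 300 bp and 0.197 at 300 to 400 bp. The excess at the edge of the selection was thus seen at 100 to 200 bp only. Another of the 635 lay within 10 kb in 60 cases (9.45%). Peaks with a 3-mismatch DR1 or an AP-1 variant TGAGTAA or TGACTAA lay in the first 1268 rows of the file in 55.2% of cases, against 40.9% of the 325 peaks with neither. Their median distances to a TSS were 15759 bp and 18358 bp, and their median GC contents 43% and 41%.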
